A study of Danio rerio with 18 samples.

Results

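The nuclear genes for the 5 complexes of oxidative phosphorylation were followed in RNA from livers of zebrafish larvae. They were taken by symbol from the count tables: the NDUFA, NDUFB, NDUFC, NDUFS and NDUFV genes without the NDUFAF assembly factors, the UQCR genes, COX4 to COX8, the ATP5 genes and SDHA to SDHD. Of 32105 gene IDs, 93 had such a symbol and at least 10 counts over all libraries. By symbol, 42 belonged to complex I, 5 to complex II, 8 to complex III, 18 to complex IV and 20 to complex V. NDUFA4 and its paralogs were counted under complex I by their symbols, although the mammalian protein is now placed in complex IV.

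The parents carried the hi272 insertion in uhrf1, a gene whose protein maintains DNA methylation after replication. The larvae carried the transgene Tg(fabp10a:CAAX-EGFP), in which a hepatocyte promoter drives a membrane-bound green fluorescent protein that marks the liver. From 48 h after fertilization they received either 20 µM palbociclib, which blocks the cell cycle kinases CDK4 and CDK6, in 0.5% DMSO, or 0.5% DMSO only, and livers were dissected at 120 h. The 18 libraries of ribosome-depleted total RNA were 5 labelled mutant in palbociclib, 4 labelled control in palbociclib, 5 labelled mutant in DMSO and 4 labelled control in DMSO. Each library pooled dissected livers from larvae of 1 genotype call and 1 treatment. Mutants were homozygous for hi272, and the controls are called wild type in the design text and control siblings in the title. Whether pools came from separate clutches is not stated, and the p-values therefore reflect only how much these pools vary.

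Complexes I to IV form the respiratory chain of the inner mitochondrial membrane. Complex I takes electrons from NADH and complex II from succinate, ubiquinone carries them to complex III, and cytochrome c carries them to complex IV, which reduces oxygen. Complexes I, III and IV pump protons, and complex V, the ATP synthase, uses the proton gradient to make ATP. Nuclear genes encode most subunits and all of complex II, while mitochondrial DNA encodes a small core set, and both heart and skeletal muscle are, like hepatocytes, rich in these complexes.

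Total counts per library were 2863560 to 4056715 for mutants in palbociclib, 3400255 to 4764175 for controls in palbociclib, 2467926 to 3618445 for mutants in DMSO and 4141600 to 5199301 for controls in DMSO. RNA of uhrf1 (UHRF1 in the table of gene names) did not separate the genotypes. It averaged 40.8 ± 6.77 CPM (counts scaled to equal library size) in mutants and 48.1 ± 7.71 CPM in controls in palbociclib, and 46.3 ± 7.52 CPM in mutants and 37.7 ± 7.47 CPM in controls in DMSO (SD, n = 5, 4, 5 and 4), so the genotypes used below rest on the labels. Hepatocyte markers were present in every group, with 28 of 31 listed symbols measured and 0 at 0 counts. The markers of skeletal muscle, of which 30 of 48 listed symbols (31 gene IDs) were measured and 0 were at 0 counts in any group, took a similar share of the libraries. Muscle markers made up 5.52 to 6.52% of counts in mutants in palbociclib, 4.45 to 6.65% in controls in palbociclib, 4.69 to 6.70% in mutants in DMSO and 3.04 to 5.14% in controls in DMSO. The hepatocyte markers made up 3.94 to 5.54%, 3.35 to 5.79%, 2.84 to 4.27% and 5.62 to 7.19% in the same 4 groups. In DMSO the muscle share was 5.79% in mutants and 3.80% in controls (exact two-sided permutation p = 0.0317, adjusted p = 0.127 over 28 share comparisons). Among controls in DMSO, library 2 stood apart with 5.14% muscle markers, against 3.04 to 3.79% in the other 3.

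By group mean the complexes were lowest in sum in the mutant DMSO libraries and highest in the control DMSO libraries. For complexes I, II and IV the means of mutants in DMSO and in palbociclib differed by less than their SD. CPM are counts scaled to a common library size after TMM scaling, which sets most genes level between libraries. For complex V the summed level was 6740 ± 83.1 CPM in mutants in palbociclib, 6980 ± 352 CPM in controls in palbociclib, 6500 ± 229 CPM in mutants in DMSO and 8080 ± 758 CPM in controls in DMSO (SD, n = 5, 4, 5 and 4). The mutant DMSO libraries ran from 6230 to 6800 CPM and the control DMSO libraries from 7220 to 8860 CPM, with no overlap. Complex I summed to 2820 ± 88.3, 2910 ± 130, 2770 ± 89.1 and 3270 ± 357 CPM in the same 4 groups and complex III to 1100 ± 19.9, 1160 ± 93.6, 1080 ± 32.5 and 1310 ± 138 CPM. Complex IV summed to 1920 ± 48, 1990 ± 126, 1910 ± 118 and 2180 ± 232 CPM, and complex II to 688 ± 29.2, 711 ± 25.7, 680 ± 24.5 and 747 ± 72.3 CPM. For complexes I, II and IV, control DMSO library 2 lay within the range of the mutant DMSO libraries (2870, 688 and 1920 CPM), and so did control DMSO library 1 for complexes II and IV (687 and 2050 CPM). For complex III library 2 had 1150 CPM, just above their highest of 1120 CPM. With libraries scaled by total count alone the order in DMSO turned round, with 6990 CPM in mutants and 6760 CPM in controls for complex V and 2980 CPM in mutants and 2730 CPM in controls for complex I. In RNA from whole livers, fewer cells of a type and less RNA per cell cannot be told apart.

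**Figure D1:**
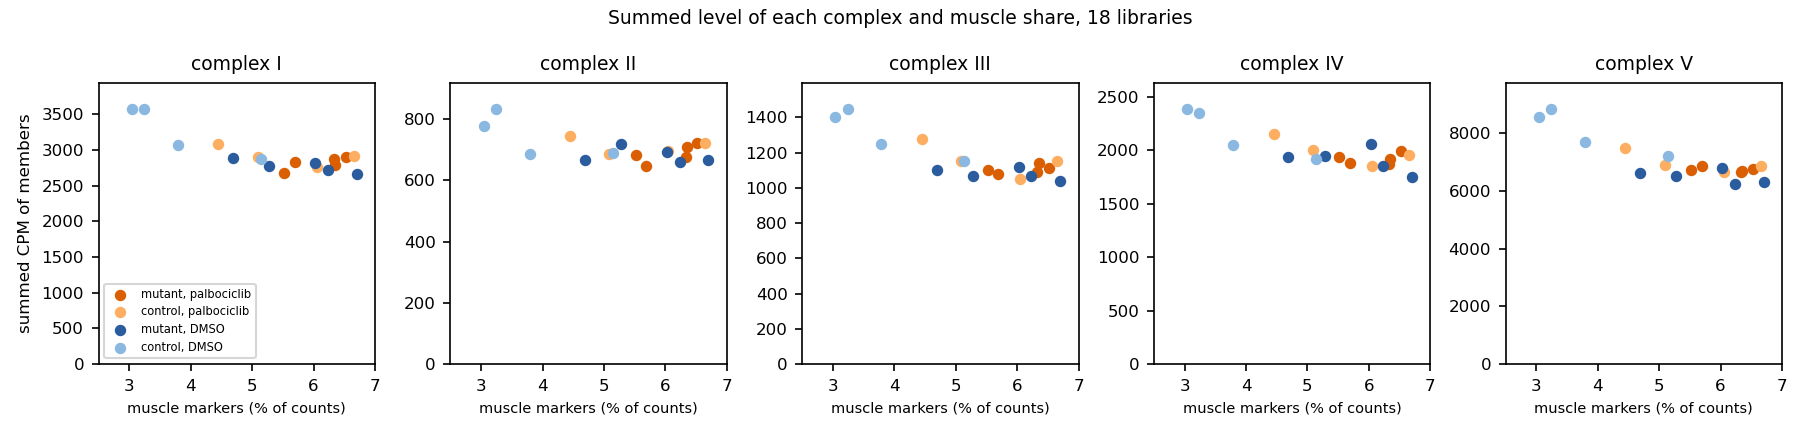
Summed level of the members of each complex (y, TMM-scaled CPM) against the share of counts on muscle markers (x, percent), 1 point per library, colours for the 4 groups. Control DMSO libraries 3 and 4, with 3.24 and 3.04% muscle markers, have the highest sums in each panel, while library 1, with 3.79%, sums to 687 CPM for complex II, among the other groups, and with library size alone as the scale the mean of mutants in DMSO is above that of controls in each complex.

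In DMSO, 24 of the 87 members tested were lower in mutants and 1 was higher, against 10.4% of all 17048 genes tested that were lower and 6.71% that were higher (edgeR's quasi-likelihood test, false discovery rate 0.05). The lower members made up 27.6% of those tested. The median member changed by -0.22 on the log2 scale and the median of all genes by 0.06, and 75 of the 87 members had a negative value. The members were more deeply counted than most genes, with a median level of 74.1 CPM against 12.1 CPM for all genes tested, and the part of depth in the count was not tested. Scaled by total count alone, 9 members were higher and 1 was lower, against 27.2% and 6.04% of all genes, and the median member changed by 0.14 while all genes changed by 0.42. The median member thus stood 0.28 below the median of all genes on the log2 scale with TMM scaling and 0.27 below it with total counts, and each direction below is relative to TMM scaling. Of the 24 lower members, 10 kept a negative value with total counts and 1 stayed called lower. The 6 members not tested for low counts were NDUFA12, NDUFA4L2, ndufa4l2b, ndufa9b, UQCRB and 1 of 2 gene IDs with the symbol SDHD (ENSDARG00000055712), with 11 to 75 counts in all.

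**Figure D2:**
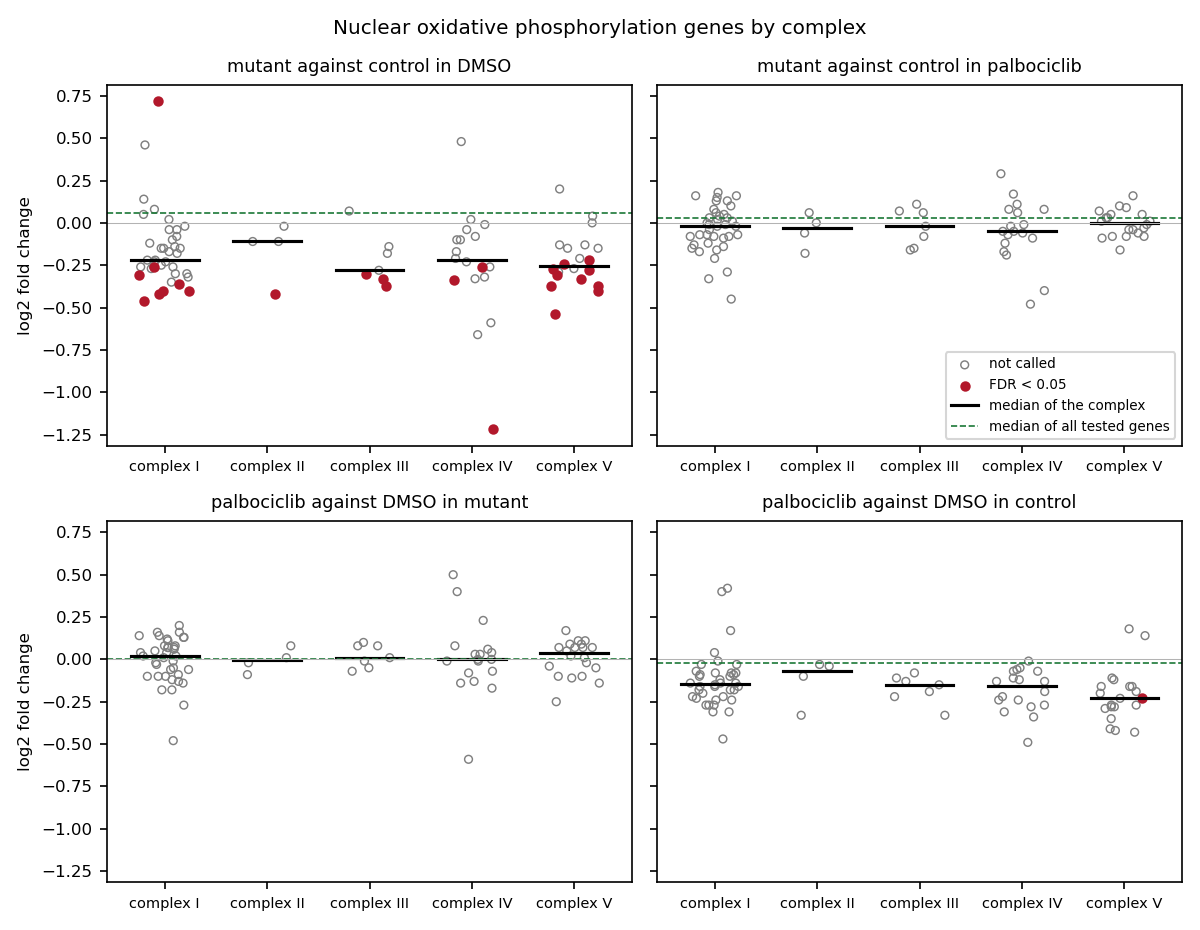
Log2 fold change (y) of each tested member, by complex (x), in the 4 pairwise comparisons, with called members filled, a bar at the median of each complex and a dashed line at the median of all tested genes. In DMSO the called members lie below zero except ndufa4b at 0.72, though scaled by total count alone the median of the members there is 0.14 instead of -0.22, and 1 member is called for palbociclib in controls and 0 in the other panels.

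Complex I had 7 lower members (18.4%) and 1 higher member (2.63%) of 38 tested, and a median log2 change of -0.22. Of all genes 10.4% were lower and 6.71% higher. NDUFV1, the flavoprotein that accepts electrons from NADH, had 478, 419, 416, 408 and 441 CPM in mutant DMSO livers, against 516, 482, 607 and 615 CPM in control DMSO livers. Every mutant library was below every control library. NDUFV1 was 0.779-fold as high in mutants (log2 -0.36 ± 0.0827 SE, adjusted p = 0.00122). NDUFS8, an iron-sulfur subunit next to the ubiquinone site, had 118, 109, 102, 90.9 and 100 CPM in mutants and 124, 125, 142 and 159 CPM in controls in DMSO (log2 -0.40, adjusted p = 0.00499). These ranges also did not overlap. The core subunits NDUFS1 and NDUFS3 and the membrane-arm subunit NDUFB10 were lower by log2 values of -0.26 to -0.42, with adjusted p of 0.0172 to 0.0276. NDUFS1, for instance, averaged 284 CPM in mutants and 340 CPM in controls in DMSO (adjusted p = 0.0172).

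NDUFA4 and its paralog ndufa4b moved in opposite directions. NDUFA4 had 128, 111, 117, 99.5 and 128 CPM in mutant DMSO livers, against 153, 124, 187 and 179 CPM in control DMSO livers (log2 -0.46 ± 0.108 SE, adjusted p = 0.00154). Mutant libraries with 128 CPM overlapped control library 2, at 124 CPM. ndufa4b had 22.4, 28.4, 26.9, 28.4 and 30.3 CPM in mutants, against 17, 18.9, 17.3 and 12.9 CPM in controls (log2 0.72 ± 0.175 SE, adjusted p = 0.00247). All 5 mutant libraries lay above all 4 control libraries, and ndufa4b was 1.64-fold as high. With total counts as the scale NDUFA4 changed by -0.09 and ndufa4b by 1.07 on the log2 scale. Of the counts on both genes, ndufa4b took 16.7 ± 1.57% in mutants in palbociclib, 14.2 ± 1.66% in controls in palbociclib, 19.0 ± 2.70% in mutants in DMSO and 9.61 ± 2.77% in controls in DMSO (SD, n = 5, 4, 5 and 4), shares of counts that are not corrected for transcript length. Among controls, ndufa4b had 20.1, 22.6, 24.7 and 21.0 CPM in palbociclib and 17, 18.9, 17.3 and 12.9 CPM in DMSO (log2 0.42, adjusted p = 0.181), without overlap but short of the threshold. With muscle share added to the fit the change of ndufa4b between genotypes in DMSO was 0.49 with an adjusted p of 0.335.

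Complex II, which also works in the citric acid cycle, had the median change nearest to 0 of the 5, at -0.11 on the log2 scale. SDHA, its flavoprotein, had 375, 419, 376, 384 and 422 CPM in mutants and 408, 390, 470 and 442 CPM in controls in DMSO (log2 -0.11, adjusted p = 0.378). SDHB, the iron-sulfur subunit, averaged 180 CPM in mutants and 194 CPM in controls, and the membrane anchor SDHC averaged 51.3 CPM in mutants and 52.2 CPM in controls. Neither passed the test. The other anchor, SDHD (ENSDARG00000030139), had 56.4, 59.4, 56.3, 55.1 and 44.5 CPM in mutants and 73.0, 51.0, 88.9 and 79.4 CPM in controls (log2 -0.42, adjusted p = 0.03). Control library 2 lay among the mutants, and with muscle share added to the fit the change of SDHD was -0.02.

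Of the 7 tested members of complex III, 3 fell in mutants in DMSO (42.9%, against 10.4% of all genes). UQCRC1, a core protein of the matrix side, had 292, 264, 286, 306 and 324 CPM in mutant DMSO livers, against 368, 349, 397 and 405 CPM in control DMSO livers (log2 -0.37 ± 0.0857 SE, adjusted p = 0.00147), without overlap. UQCRFS1, the Rieske iron-sulfur protein that passes electrons to cytochrome c1, had 226, 246, 227, 223 and 215 CPM in mutants and 279, 241, 337 and 287 CPM in controls (log2 -0.33, adjusted p = 0.00717). Its ranges overlapped through control library 2. The second core protein UQCRC2 averaged 196 CPM in mutants and 240 CPM in controls (log2 -0.30, adjusted p = 0.0211), while its paralog uqcrc2a averaged 132 and 149 CPM in mutants and controls and did not pass (adjusted p = 0.252). UQCRH, UQCRQ and UQCR10 had log2 values of -0.14, 0.07 and -0.28 and did not pass.

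Complex IV had 3 lower members of 18 tested (16.7%, against 10.4% of all genes). It also had the member with the largest fold change of all, cox7a1, with 863 counts over all libraries. cox7a1, whose mammalian counterpart is the form of heart and skeletal muscle, had 7.01, 8.98, 9.16, 5.18 and 8.43 CPM in mutant DMSO livers, against 17.2, 10.6, 20.1 and 24.0 CPM in control DMSO livers. All mutant libraries were below all control libraries. It was 0.430-fold as high in mutants (log2 -1.22 ± 0.278 SE, adjusted p = 0.00116), and -0.83 with total counts as the scale (adjusted p = 0.0181). COX7A2, the form of liver and most other tissues in mammals, averaged 72.1 CPM in mutants and 77.5 CPM in controls in DMSO (log2 -0.10, adjusted p = 0.641). Of the counts on both genes, cox7a1 took 12.6 ± 3.0%, 18 ± 5.25%, 9.79 ± 2.40% and 18.8 ± 5.0% in mutants in palbociclib, controls in palbociclib, mutants in DMSO and controls in DMSO. The muscle markers were higher in mutant than in control DMSO livers and cox7a1 was lower, and which cells its RNA came from was not tested. With muscle share added to the fit cox7a1 changed by -0.62 (adjusted p = 0.5). Within groups, cox7a1 changed by -0.88 on the log2 scale for each doubling of the muscle share (adjusted p = 0.215).

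COX5A and COX5B (ENSDARG00000015978), subunits that surround the catalytic core, were the other lower members, with log2 values of -0.34 (adjusted p = 0.0478) and -0.26 (adjusted p = 0.0237). COX5A averaged 91.2 CPM in mutants and 115 CPM in controls, and its call rested on the full set of libraries, since it passed in 3 of 18 fits with a library left out. COX4I1, the common form of subunit 4, averaged 285 CPM in mutants and 333 CPM in controls (adjusted p = 0.063). The rarer forms cox4i1l and COX4I2, whose mammalian counterpart is known from lung and hypoxia, together took 6.47 ± 1.00%, 5.25 ± 0.503%, 5.48 ± 1.56% and 5.41 ± 1.08% of the counts on the 3 cox4 genes in mutants in palbociclib, controls in palbociclib, mutants in DMSO and controls in DMSO. For subunit 8, cox8b took 10.6 ± 2.15%, 10.0 ± 1.16%, 11.9 ± 2.00% and 13.0 ± 3.17% of the counts on cox8a and cox8b in the same 4 groups. cox6b2 took 60.9 ± 2.57%, 61.4 ± 6.03%, 61.9 ± 3.75% and 56.9 ± 2.85% of those on cox6b1 and cox6b2. For each of these 3 shares the ranges of the 4 groups overlapped.

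**Figure D3:**
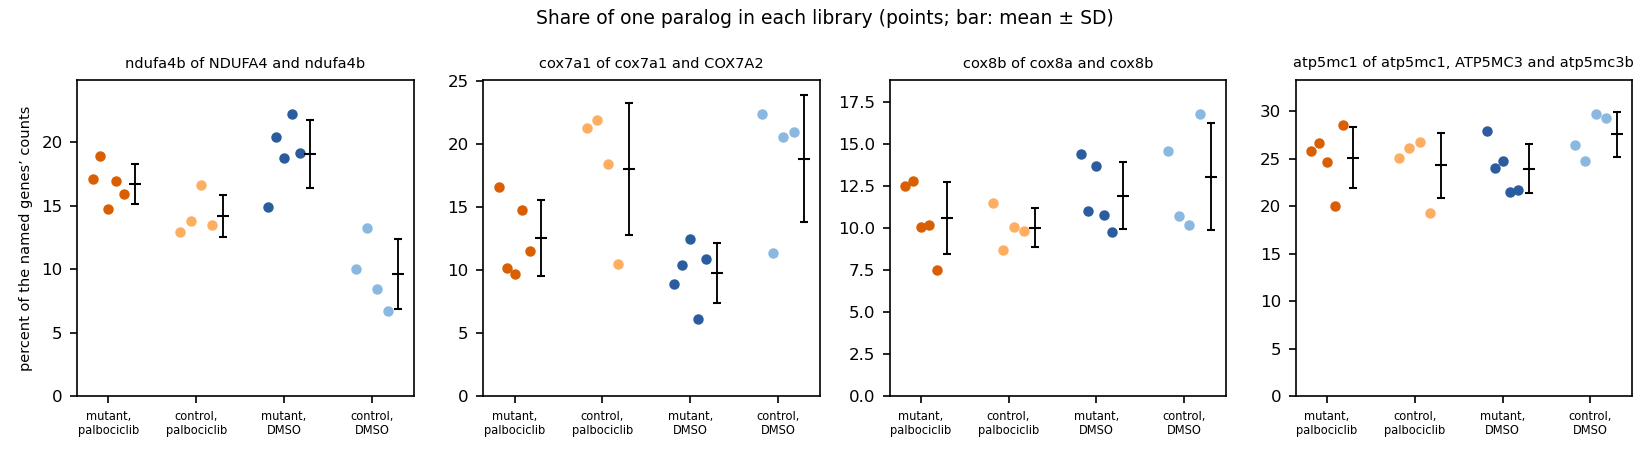
Share of counts (y, percent of the counts on the genes named above each panel) taken by 1 paralog in each library, by group (x), with mean ± SD. ndufa4b lies at 14.9 to 22.2% in mutant DMSO livers and at 6.72 to 13.2% in control DMSO livers, and cox7a1 at 6.16 to 12.5% in mutant DMSO livers and at 11.4 to 22.4% in control DMSO livers.

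Complex V had the most calls, with 10 lower members of 20 tested in mutants in DMSO (50.0%, against 10.4% of all genes). The changes themselves were not larger throughout. The log2 values of these lower members ran from -0.54 to -0.22, and those of the lower members of complex I from -0.46 to -0.26. The SE was 0.0639 for the deeply counted ATP5F1B and 0.148 for atp5meb, which was not called. The part of depth in the count for complex V was not tested. ATP5F1B, the catalytic beta subunit, had the smallest adjusted p of all members. It had 1850, 1850, 1790, 1850 and 2040 CPM in mutant DMSO livers, against 2400, 2240, 2700 and 2550 CPM in control DMSO livers. The ranges did not overlap, and ATP5F1B was 0.759-fold as high in mutants (log2 -0.40 ± 0.0639 SE, adjusted p = 8.73e-06). ATP5F1A, the alpha subunit that forms the catalytic ring with it, had 1670, 1620, 1680, 1550 and 1760 CPM in mutants and 1930, 1960, 2220 and 2070 CPM in controls (log2 -0.31 ± 0.0627 SE, adjusted p = 0.000294), again without overlap. The gamma subunit of the rotating shaft, ATP5F1C, had 301, 271, 268, 273 and 268 CPM in mutants and 326, 287, 372 and 405 CPM in controls (log2 -0.33, adjusted p = 0.00522). Here mutant library 1 lay above control library 2.

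Of 4 genes of the stator, which holds the ATP5F1A and ATP5F1B ring against rotation, 3 were lower. ATP5PD averaged 180 CPM in mutants and 233 CPM in controls in DMSO (log2 -0.37, adjusted p = 0.00477), ATP5PO 253 and 305 CPM (log2 -0.27, adjusted p = 0.0205) and ATP5PB 358 and 417 CPM (log2 -0.22, adjusted p = 0.0424). ATP5PB passed in 4 of 18 fits with a library left out, and changed by 0.14 with total counts as the scale. The fourth, ATP5PF, averaged 141 CPM in mutants and 156 CPM in controls and did not pass (log2 -0.15, adjusted p = 0.421). The membrane subunit ATP5MG averaged 191 CPM in mutants and 232 CPM in controls (log2 -0.28, adjusted p = 0.0237). All 3 genes for the proton-carrying c-ring were lower, atp5mc1 by -0.54 (adjusted p = 0.00959), ATP5MC3 by -0.37 (adjusted p = 0.0341) and atp5mc3b by -0.24 (adjusted p = 0.0399) on the log2 scale. atp5mc1 had 271, 235, 216, 181 and 199 CPM in mutants and 283, 237, 383 and 381 CPM in controls, and control library 2 lay among the mutants. Genes for the inhibitor of the reverse reaction, atp5if1a and atp5if1b, averaged 47.8 and 53.1 CPM in mutants against 41.6 and 51.8 CPM in controls and did not pass (adjusted p = 0.41 and 0.885).

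**Figure D4:**
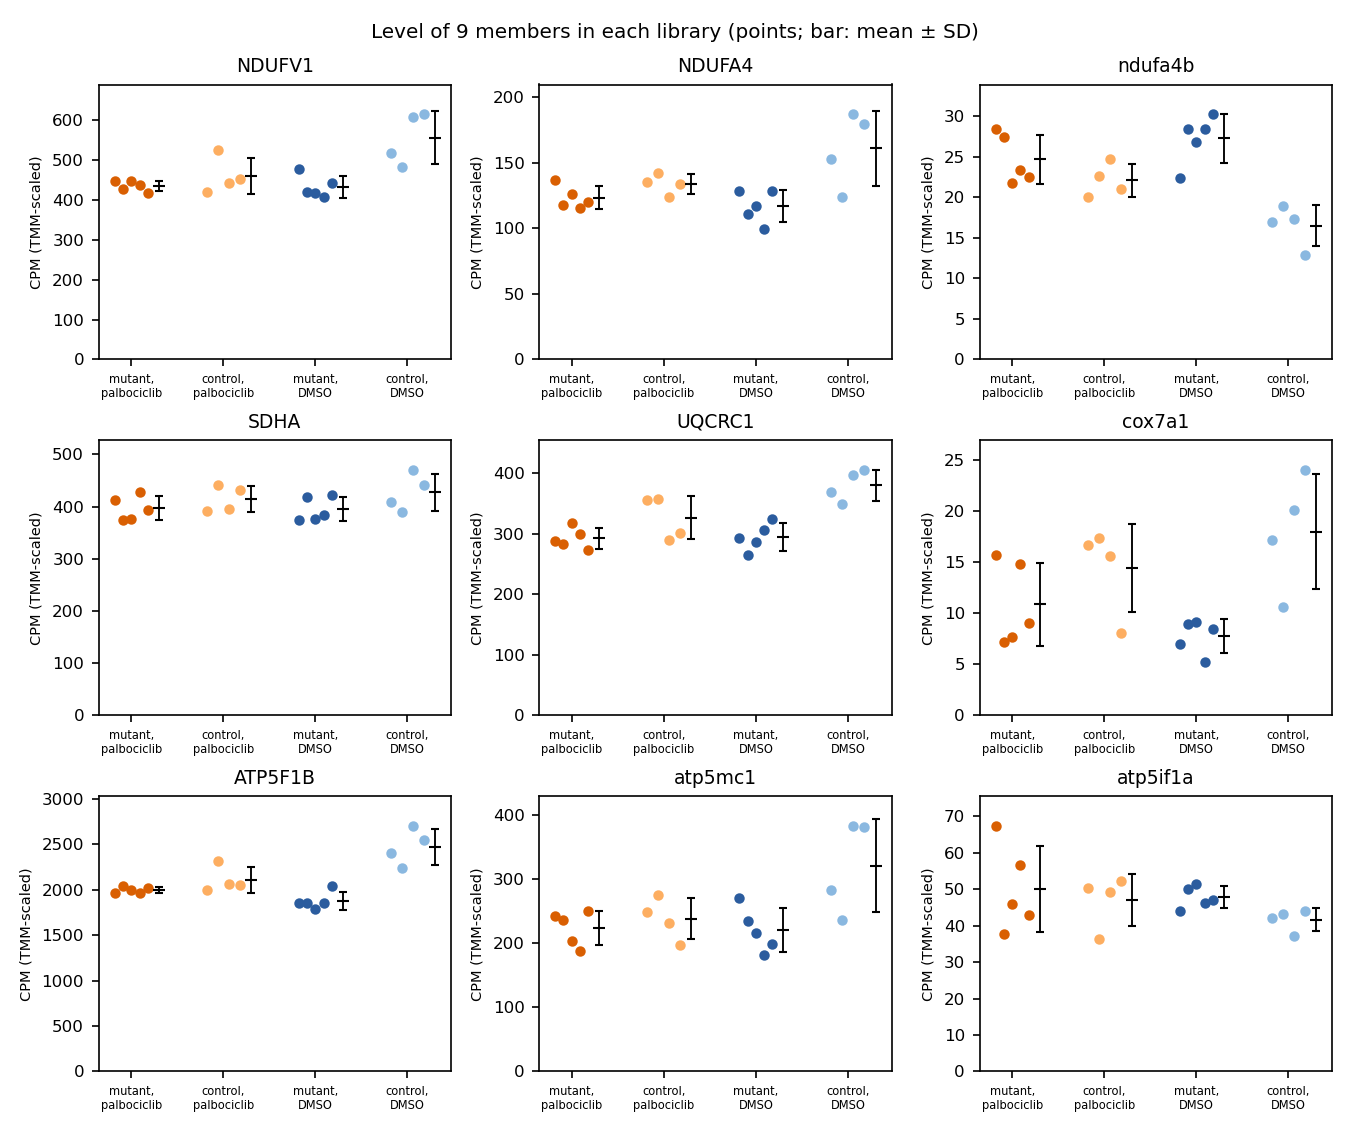
Level of 9 members (y, TMM-scaled CPM, axis from 0) in each of the 18 libraries by group (x), with mean ± SD beside the points. NDUFV1, UQCRC1, cox7a1 and ATP5F1B are lower in every mutant DMSO library than in every control DMSO library and ndufa4b is higher, while with total counts as the scale the log2 change is 0.00 for NDUFV1, -0.01 for UQCRC1 and -0.04 for ATP5F1B.

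In palbociclib no member passed the test between mutants and controls. Of the 87 tested, 0 were called by edgeR's quasi-likelihood test or by DESeq2, and 1.05% of all genes were called by edgeR. At an unadjusted p under 0.05, 0 were higher and 2 lower by edgeR (4.96% and 4.76% of all genes), which were the complex I genes NDUFS4 and ndufv3. ATP5F1B had 1960, 2040, 2000, 1960 and 2020 CPM in mutants and 2000, 2310, 2060 and 2050 CPM in controls (log2 -0.08, adjusted p = 0.807). NDUFV1 averaged 435 CPM in mutants and 460 CPM in controls (log2 -0.08, adjusted p = 0.882), cox7a1 averaged 10.9 and 14.4 CPM (log2 -0.40, adjusted p = 0.727), and ndufa4b 24.7 and 22.1 CPM (log2 0.16, adjusted p = 0.878). The ranges of these 4 genes overlapped between the genotypes. The median member changed by -0.02 and all genes by 0.03, and complex medians lay between -0.05 and 0.00.

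Within mutants, palbociclib moved no member past the threshold. By edgeR 0 of 87 were called (0.546% of all genes), 0 by DESeq2, and at an unadjusted p under 0.05 NDUFS4 was the only lower member and 0 were higher (5.43% and 3.4% of all genes). NDUFS4, an accessory subunit of the NADH-binding arm, had 28.1, 26.4, 23.5, 37.6 and 26.4 CPM in palbociclib and 38.7, 42.9, 32.3, 41.7 and 42.5 CPM in DMSO (log2 -0.48, adjusted p = 0.179), with overlapping ranges. ATP5F1B averaged 2000 CPM in palbociclib and 1870 CPM in DMSO (log2 0.09, adjusted p = 0.729). The median member changed by 0.01 and all genes by 0.00. Muscle markers averaged 6.09% of counts in palbociclib and 5.79% in DMSO in these mutants.

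Within controls, palbociclib lowered 1 member, ATP5F1B. It had 2000, 2310, 2060 and 2050 CPM in palbociclib and 2400, 2240, 2700 and 2550 CPM in DMSO (log2 -0.23 ± 0.0676 SE, adjusted p = 0.0348), with overlapping ranges. The count of 1 of 87 compares with 4.33% of all genes called lower and 1.39% called higher. Although 1 member passed, 81 of 87 had a negative value, the median was -0.16 against -0.02 for all genes, and 20 were lower at an unadjusted p under 0.05 (13.0% of all genes), 11 of them in complex V. ATP5F1A averaged 1780 CPM in palbociclib and 2050 CPM in DMSO (log2 -0.20, adjusted p = 0.0616), NDUFV1 averaged 460 and 555 CPM (log2 -0.27, adjusted p = 0.055) and atp5mc1 239 and 321 CPM (log2 -0.43, adjusted p = 0.0975). With total counts as the scale the median member changed by 0.10 and all genes by 0.23, and ATP5F1B by 0.03. The muscle markers averaged 5.56% of counts in palbociclib and 3.80% in DMSO in controls, and the call of ATP5F1B was lost in 15 of the 18 fits with a library left out, each of which called 0 members by edgeR. In the other 3 fits more members were called lower, 14 without control DMSO library 2, 7 without control palbociclib library 2 and 3 without control DMSO library 1.

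A direct test of whether the genotype effect differed between palbociclib and DMSO called 0 of the 87 members with edgeR, against 1.99% of all genes, and 1 with DESeq2. At an unadjusted p under 0.05, 13 members had a less negative genotype effect in palbociclib and 1 a lower one by edgeR (8.79% and 4.54% of all genes). ATP5F1B came closest, its genotype effect being 0.32 ± 0.0907 (SE) higher in palbociclib on the log2 scale (adjusted p = 0.0511). It was followed by ATP5F1A at 0.27 (adjusted p = 0.105) and ATP5F1C at 0.34 (adjusted p = 0.17). The median member had a value of 0.20 and the median gene 0.00, and 78 of 87 members were positive. With total counts as the scale these medians were -0.07 and -0.27, and with muscle share added to the fit 0.05 and 0.01. The comparisons share groups, so their values are not independent.

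The share of muscle markers moved with these genes among libraries of the same group. In a fit with group means, 16 of 87 members fell as the muscle share rose and 0 increased, against 8.76% and 3.85% of all genes. The median member changed by -0.28 for each doubling of the share and all genes by -0.02 on the log2 scale. Among the called members the steepest were cox6b1 (-0.94, adjusted p = 8.02e-06) and atp5mc1 (-0.88, adjusted p = 1.69e-07), and complex V had 7 of the 16. ATP5F1B had a slope of -0.22 (adjusted p = 0.0304), and ATP5F1A one of -0.14 (adjusted p = 0.22). The slope call leaned on control DMSO library 2, without which 4 members were called, and with total counts as the scale 15 rose and 2 fell, against 18.7% and 3.66% of all genes (median 0.20 against 0.46 for all genes). The muscle markers make up this share, so a rise with it was built in. Of these markers 25 of 31 had a called positive slope and 1 a negative one. Of the hepatocyte markers 23 of 28 had a called negative slope. Control DMSO library 2 also had the highest share of skin markers in its group, 0.77% against 0.44 to 0.57% in the others. The slope thus cannot tell muscle from other tissues around the liver.

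With muscle share added to the fit, 2 of 87 members were called lower in DMSO (2.3%), under the 3.09% of all genes. They were ATP5F1B (log2 -0.26, adjusted p = 0.00247) and ATP5F1A (log2 -0.22, adjusted p = 0.0152), both among the 24 lower members without it. The muscle share itself averaged 5.79% in mutants and 3.80% in controls in DMSO, so this fit cannot fully separate it from genotype. Of those 24 members a further 19 kept a negative value, and COX5A, ATP5MC3 and atp5mc1 had values of 0.05, 0.08 and 0.03. The median member then changed by -0.03 and all genes by 0.01. NDUFV1 changed by -0.14 (adjusted p = 0.502), UQCRC1 by -0.23 (adjusted p = 0.182) and cox7a1 by -0.62 (adjusted p = 0.5). In the same fit the medians for palbociclib against DMSO in controls were 0.00 for members and -0.01 for all genes. The hepatocyte share, 3.45% in mutants and 6.63% in controls in DMSO (exact two-sided permutation p = 0.0159, adjusted p = 0.127), moved the other way, and its part in the result was not tested.

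**Figure D5:**
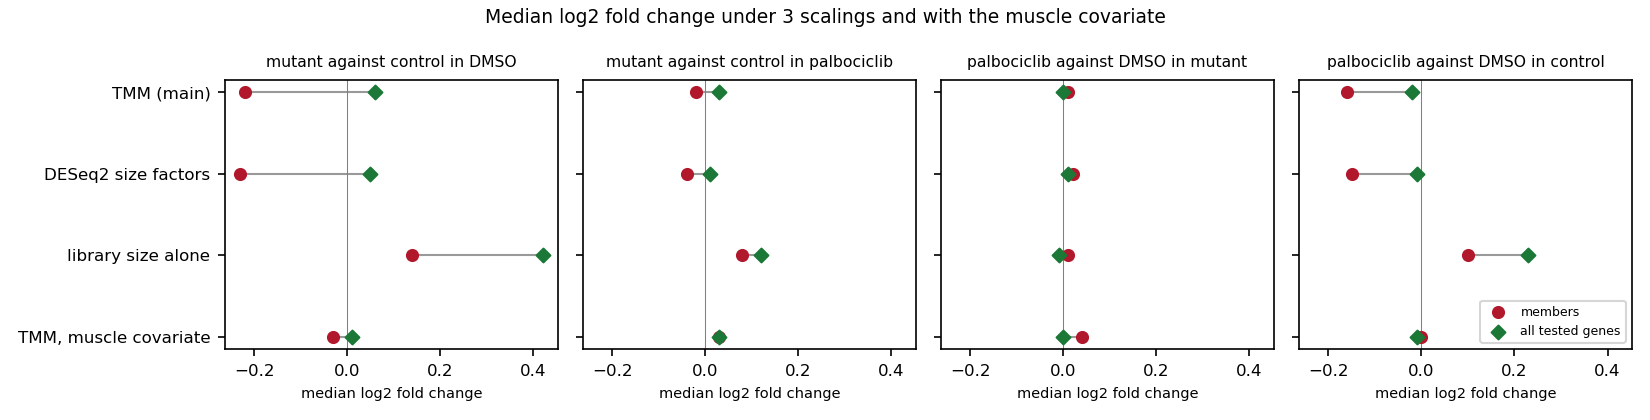
Median log2 fold change (x) of the 87 tested members and of all 17048 tested genes in the 4 pairwise comparisons, under TMM, DESeq2 size factors, library size alone and TMM with muscle share added to the fit (y). In mutants against controls in DMSO the members lie 0.28 below all genes under TMM and 0.27 below under library size alone, where their own median turns to 0.14, and 0.04 below with the covariate.

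The genes around the complexes were read from lists of 5 kinds. Of the 13 mitochondrially encoded subunits, 11 fell in mutants in DMSO (84.6%, against 10.4% of all genes) and the median change was -0.63. MT-CO1, the catalytic subunit of complex IV, had 9710, 9270, 8230, 8150 and 8810 CPM in mutant DMSO livers and 12300, 10100, 12900 and 14300 CPM in control DMSO livers (log2 -0.49 ± 0.0903 SE, adjusted p = 0.000624), without overlap. It did not pass with total counts as the scale (log2 -0.12, adjusted p = 0.347) or with muscle share added (log2 -0.10, adjusted p = 0.19). MT-ND5, a proton-pumping subunit of complex I, averaged 1390 and 2390 CPM (log2 -0.79, adjusted p = 0.000315) and MT-ND6 averaged 515 and 932 CPM (log2 -0.86, adjusted p = 0.000393) in mutants and controls. MT-ND5 (log2 -0.42, adjusted p = 0.00261) and MT-ND6 (log2 -0.51, adjusted p = 0.00112) stayed lower with total counts as the scale. On that scale 6 of the 13 were lower, against 6.04% of all genes. Their median was -0.26, while the nuclear members had a median of 0.14 on that scale. With muscle share added to the fit 1 was lower (3.09% of all genes) and the median was -0.08. The 1 was MT-ND5 (log2 -0.28, adjusted p = 0.00277), and MT-ND6 did not pass (log2 -0.44, adjusted p = 0.115). Within groups 12 of the 13 fell with the muscle share, against 8.76% of all genes. In palbociclib 0 of 13 differed between genotypes by edgeR (1.05% of all genes). At an unadjusted p under 0.05, 8 were lower there (4.76% of all genes). In controls palbociclib lowered 3 of 13, against 4.33% of all genes. They were MT-CO1, MT-ND5 and MT-ND6, with edgeR adjusted p of 0.0444, 0.0342 and 0.0484. The 3 did not pass with total counts as the scale (adjusted p = 0.664, 0.12 and 0.113). Nor did they pass with muscle share added to the fit (adjusted p = 0.999, 0.897 and 0.901).

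Of 18 genes of the citric acid cycle and pyruvate dehydrogenase, 9 were lower (50.0%) and 2 higher (11.1%) in mutants in DMSO, against 10.4% and 6.71% of all genes. SUCLG1 and SUCLG2, subunits of succinyl-CoA ligase, had the largest falls. SUCLG2 had 216, 208, 163, 183 and 179 CPM in mutants and 554, 398, 572 and 571 CPM in controls (log2 -1.46, adjusted p = 3.15e-06), without overlap. SUCLG1 averaged 359 CPM in mutants and 655 CPM in controls (log2 -0.87, adjusted p = 3.85e-09). Both stayed called with total counts as the scale (log2 -1.10 and -0.49 for SUCLG2 and SUCLG1) and with muscle share added to the fit (-0.91 and -0.48). FH, fumarate hydratase, averaged 152 and 216 CPM in mutants and controls (log2 -0.51, adjusted p = 0.000182). FH did not pass with total counts as the scale (log2 -0.14, adjusted p = 0.341) or with muscle share added (log2 -0.20, adjusted p = 0.401). In the TMM fit citrate synthase (CS) and IDH2 were higher by 0.32 (adjusted p = 0.00786) and 0.34 (adjusted p = 0.00328). With total counts as the scale 4 of the 18 were higher and 2 lower, against 27.2% and 6.04% of all genes.

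Among 22 carriers of electrons, adenine nucleotides and phosphate, 9 were lower (40.9%) and 1 higher (4.55%) in mutants in DMSO. Of all genes 10.4% were lower and 6.71% higher. With muscle share added to the fit 0 of the 22 were called by edgeR, while 3.09% of all genes were called lower. At an unadjusted p under 0.05, 3 were lower, and the share of all genes at that threshold is not given here. COQ2, COQ6 and COQ9, of ubiquinone synthesis, were lower by -1.09, -0.82 and -0.64 on the log2 scale (adjusted p = 0.000251, 0.00532 and 0.00435). ETFA, ETFB and ETFDH, which pass electrons from fatty acid oxidation to ubiquinone, were lower by -0.63, -0.49 and -0.42 (adjusted p = 0.000901, 0.000599 and 0.00518). COQ2 stayed lower with total counts as the scale (log2 -0.73, adjusted p = 0.00999), and ETFB did not pass (log2 -0.13, adjusted p = 0.394). CYC1, cytochrome c1 of complex III, whose symbol lay outside the rule, averaged 271 CPM in mutants and 320 CPM in controls (log2 -0.24, adjusted p = 0.0485). The ADP/ATP carriers moved apart: SLC25A5 averaged 3020 CPM in mutants and 3730 CPM in controls (log2 -0.31, adjusted p = 0.000416), and SLC25A4, the mammalian form of heart and muscle, averaged 327 and 263 CPM (log2 0.31, adjusted p = 0.00855). With total counts as the scale SLC25A5 changed by 0.06 and SLC25A4 by 0.66, and with muscle share added to the fit SLC25A4 changed by 0.07 (adjusted p = 0.832).

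Of 52 assembly factors tested, 4 were lower (7.69%, under the 10.4% of all genes) and 0 higher (6.71% of all genes) in mutants in DMSO by edgeR. The 4 were ACAD9 and FOXRED1, of complex I assembly, sdhaf1, of complex II assembly, and COX10, which makes the heme of complex IV. ACAD9 averaged 34.3 CPM in mutants and 69.7 CPM in controls (log2 -1.02, adjusted p = 6.9e-05) and FOXRED1 12.0 and 22.2 CPM (log2 -0.89, adjusted p = 0.0022). With muscle share added to the fit ACAD9, FOXRED1 and sdhaf1 did not pass (adjusted p = 0.087, 0.277 and 0.751). With total counts as the scale FOXRED1 did not pass (adjusted p = 0.0638). ACAD9 and sdhaf1 stayed lower there (log2 -0.67 and -1.10, adjusted p = 0.00266 and 0.0335). Values of COX10 under these settings are not given here. Of 16 regulators of mitochondrial biogenesis tested, 3 were lower (18.8%, against 10.4% of all genes). ESRRA, a nuclear receptor that in mammals activates genes of oxidative phosphorylation, had 19.4, 18.8, 20.2, 13.8 and 15.3 CPM in mutants and 48.2, 36.3, 47.5 and 59.5 CPM in controls (log2 -1.45 ± 0.172 SE, adjusted p = 3e-08), without overlap. It stayed lower with total counts as the scale (log2 -1.07, adjusted p = 9.25e-06) and with muscle share added to the fit (log2 -1.11, adjusted p = 0.000605). Its coactivator PPARGC1A averaged 18.2 and 30.6 CPM in mutants and controls (log2 -0.75, adjusted p = 0.00415). PPARGC1A did not pass with total counts as the scale (log2 -0.40, adjusted p = 0.119) or with muscle share added (log2 -0.61, adjusted p = 0.205). The nuclear receptor pparaa changed by -0.68 (adjusted p = 0.0283). In palbociclib 0 genes of these 4 lists of nuclear genes were called between genotypes by edgeR, against 1.05% of all genes. At an unadjusted p under 0.05, 1 of 52 assembly factors, 4 of 18 cycle genes and 2 of 22 carriers were lower there. So were 2 of 16 regulators, against 4.76% of all genes for each list. Higher were 2 assembly factors and 1 regulator, against 4.96% of all genes.

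The members differed in how steady they were between libraries of a group. Over the 87 tested members the SD of log2 CPM within groups ran from 0.0659 to 0.794 with a median of 0.178. ATP5F1A (0.0659), ATP5PB (0.0748), NDUFS1 (0.0776) and ATP5F1B (0.0793) were the steadiest. The widest were cox4i1l (0.794), COX5B (ENSDARG00000068738, 0.596) and cox7a1 (0.455), all of complex IV. These steadiest members had 20968 to 143066 counts over all libraries and these widest ones 303 to 863. The SD includes counting noise, which is larger at low counts, and the part of depth in this ranking was not tested. cox4i1l ranged from 0.269 to 6.17 CPM among mutant DMSO libraries, and its log2 value of -0.66 ± 0.416 (SE) did not pass (adjusted p = 0.313). COX5B (ENSDARG00000068738) averaged 5.75 CPM in mutants and 4.17 CPM in controls in DMSO, and counts shared between it and the other COX5B gene ID could have been split between the pair.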

How the data were processed

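RNA-seq counts per gene were used as deposited by the authors, 1 table per library, with no normalization. Reads were handled with FastQC 0.11.5 and Trimmomatic 0.36, per the submitters' processing notes. Aligner, counter, strand setting, genome build and annotation were not given in the sources used here. Members with a paralog or a shared symbol (6 gene IDs) may therefore share reads. Symbols came from a table of gene IDs and names for 26269 gene IDs, and all rows name genes.

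One model with 4 group means was fitted to the 18 libraries with edgeR 4.0.16 (R 4.3.3, limma 3.58.1; robust quasi-likelihood, TMM, filterByExpr), which kept 17048 genes with 99.56% of counts. TMM factors were 0.763 to 1.15. In DMSO they were 0.763 to 0.999 in controls and 1.0 to 1.15 in mutants, without overlap, so the scaling itself differed between these groups. In palbociclib they were 0.867 to 1.09 in controls and 1.05 to 1.11 in mutants. Adjusted p-values are Benjamini-Hochberg over all genes tested, called at 0.05. The slope on the muscle share added log2 of the share to that model. The share comparisons used exact two-sided permutation tests. No pair of libraries held identical values, and replicates differed by more than sampling noise (chi-square per gene 3.36 to 25.8). Replicate numbers were not used as pairs. The alternatives were DESeq2 1.42.0, its size factors, library size alone, no filter, the compared groups alone, the replicate block, the muscle covariate and each library left out.

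The members and lists were chosen with earlier results of these data known. Genes named by rule were the 4 members of each complex with the smallest adjusted p in each pairwise comparison, the 4 smallest in the interaction, a fixed set of paralogs and small complexes, and the 3 smallest of each pathway list in DMSO. Other genes named, such as CYC1, SLC25A4, the remaining called members and the steadiest and widest members, were chosen after their values were seen. The values of 1 called member of complex I are not reported here. The fits were tested on simulated data with known changes in genes drawn from all those tested. A log2 change of 0.5 was recovered in 7.94% of changed genes for mutants against controls in DMSO and 3.23% in palbociclib. For palbociclib against DMSO it was recovered in 6.94% in mutants and 3.17% in controls. For the interaction it was 1.54% and for the slope 0%. A member not called may thus have changed. Members are more deeply counted than most genes, and their own recovery was not measured. Sequences are not printed, since none was in the sources used here, and a planned promoter motif search was not run.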

Additional observations from a re-analysis of the deposited data

Results flagged for a closer look

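In 6 of 120 groups of libraries tested over a part of the named members, 1 library lay far from the rest of its group. This rate is no higher than the 1 in 20 that chance gives. In mutant DMSO livers, library 5 had 44.5 CPM of SDHD (ENSDARG00000030139), against 55.1 to 59.4 CPM in the others, and 2040 CPM of ATP5F1B, against 1790 to 1850 CPM. Library 1 of that group had 301 CPM of ATP5F1C, against 268 to 273 CPM. In mutant palbociclib livers, library 2 had 185 CPM of UQCRC2, against 209 to 217 CPM, and 86.8 CPM of ATP5MC3, against 72.4 to 76.3 CPM. In control palbociclib livers, library 2 had 327 CPM of ATP5F1C, against 285 to 288 CPM.

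For 3 genes of the pathway lists the genotype effect itself differed between palbociclib and DMSO (edgeR's interaction test). The 5 lists had 13, 18, 22, 52 and 16 genes tested, and 1.99% of all genes were called. These 3 genes were named for a small adjusted p in mutants against controls in DMSO, and that comparison is part of the interaction. SUCLG1 had a genotype effect 0.57 higher in palbociclib on the log2 scale (adjusted p = 0.0128), SUCLG2 one 1.01 higher (adjusted p = 0.0246) and ESRRA one 1.08 higher (adjusted p = 0.00949). SUCLG2 had 278, 231, 225, 188 and 261 CPM in mutant palbociclib livers, 362, 417, 272 and 243 CPM in control palbociclib livers, 216, 208, 163, 183 and 179 CPM in mutant DMSO livers and 554, 398, 572 and 571 CPM in control DMSO livers. With library size alone the adjusted p was 0.269 for SUCLG1, 0.00847 for SUCLG2 and 0.0719 for ESRRA, and with muscle share added to the fit 0.188, 0.00434 and 0.127.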

How the results depend on the processing

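For mutants against controls in DMSO, 25 members were called (1 higher, 24 lower). The count was 10 (9 higher, 1 lower) with library size alone, 2 with the muscle covariate, 15 (1 higher, 14 lower) with the replicate block and 14 (1 higher, 13 lower) with the compared groups alone, and 11 to 35 with 1 library left out, 35 without control DMSO library 2 and 11 without library 3. Of the 25, 10 passed in each of the 18 fits with a library left out, COX5A in 3, ATP5PB in 4 and the other 13 in 12 to 17. The median of -0.22 became 0.14 with library size alone and -0.03 with the covariate, and lay between -0.28 and -0.15 with 1 library left out. For palbociclib against DMSO in controls, the 1 lower member, of complex V, gave way to 2 higher members of complex I with library size alone, and 0 were called with the covariate, DESeq2, the replicate block or the compared groups alone, and 0 to 14 with 1 library left out, 0 in 15 of 18 such fits. Its median of -0.16 became 0.10 with library size alone and 0.00 with the covariate, and -0.21 to -0.09 with 1 library left out. The interaction median of 0.20 became -0.07 with library size alone and 0.05 with the covariate, DESeq2 called 1 member, and leaving out 1 library gave 0 to 3 calls and medians of 0.13 to 0.25. The slope median of -0.28 became 0.20 with library size alone and -0.08 on the percent scale, and its count was 4 to 19 with 1 library left out.

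With library size alone the DMSO log2 values turned to 0.00 for NDUFV1, 0.10 for NDUFS1, 0.04 for UQCRFS1, 0.07 for UQCRC2, 0.11 for COX5B and 0.04 for COX5A. In complex V they turned to 0.05 for ATP5F1A, 0.04 for ATP5F1C, 0.12 for atp5mc3b, 0.10 for ATP5PO, 0.14 for ATP5PB, 0.08 for ATP5MG and 0.01 for ATP5MC3. Those of cox6b2 and SLC25A5 turned to 0.36 and 0.06, and that of ATP5F1B for palbociclib in controls to 0.03. With the covariate COX5A turned to 0.05, ATP5MC3 to 0.08, atp5mc1 to 0.03 and pparaa to 0.20 in DMSO, and MT-CO1 to 0.00 for palbociclib in controls. The cause was not tested.

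With library size alone the summed CPM in mutants in palbociclib, mutants in DMSO and controls in DMSO were 3020, 2980 and 2730 for complex I, 737, 732 and 625 for II, 1180, 1160 and 1090 for III, 2060, 2050 and 1820 for IV and 7220, 6990 and 6760 for V. Muscle markers were also left out of the library size, with TMM factors computed again on the remaining genes. On that TMM scale mutants in palbociclib and mutants in DMSO had 2980 and 2930 for complex I and 727 and 719 for II. They had 1170 and 1140 for III and 7130 and 6870 for V, and mutants in palbociclib had 2030 for IV. Controls in palbociclib then had 3080 for complex I, 752 for II and 7380 for V. Controls in DMSO had 3460, 789, 1380, 2300 and 8540 for complexes I to V. In each complex these stayed above mutants in DMSO, which had 2020 for IV. Since TMM scaling was kept, this order does not show what leaving out muscle markers does to sums scaled by total count.

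Same-numbered libraries did not deviate together: over 24 pairs r was -0.194 to 0.0575, 0 were over 0.1, and 1 of 18 libraries correlated best with its own number, so the pairing was not used. With the replicate block the interaction had an adjusted p of 0.11 for SUCLG1, 0.0588 for ESRRA and 0.0216 for SUCLG2. Depth was 2467926 to 5199301 counts, and 6 members were left untested for low counts. Why these gene IDs had few counts was not tested.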

Other observations

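Markers of other tissues were read from the same fits. Of all genes, 6.71% were called higher and 10.4% lower in mutants against controls in DMSO. In mutants against controls in DMSO, by edgeR, 5 of 17 skin markers were higher and 0 lower (median log2 0.26), 2 of 6 intestine markers were higher (0.25) and 1 of 7 leukocyte markers was higher (0.37). Of 13 exocrine pancreas markers 0 were called (median -0.13, 1 higher and 1 lower at an unadjusted p under 0.05), and of 5 erythrocyte markers tested 0 were called (median 0.23, 1 higher at an unadjusted p under 0.05). The share of all genes at the unadjusted threshold is not given here. Of the muscle markers 18 of 31 were higher and 1 lower, and of the hepatocyte markers 1 of 28 was higher and 21 lower (median -1.54).

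For palbociclib against DMSO in controls, 23 of 31 muscle markers and 4 of 17 skin markers were higher, against 1.39% of all genes. There 6 of 28 hepatocyte markers were lower, against 4.33% of all genes. Between mutants and controls in palbociclib 2 of 28 hepatocyte markers were lower, while 1.05% of all genes were higher or lower. For palbociclib against DMSO in mutants 2 of 28 hepatocyte markers were higher, while 0.546% of all genes were higher or lower.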
